A study of Mus musculus with 6 samples.

Results

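The genes described here make GABA, load it into vesicles, take it back up and break it down: Gad1, Gad2, Slc32a1, Slc6a11 and Abat. They were chosen by name, as the probe sets annotated with exactly 1 of these 5 symbols, with earlier results of these data known. All 5 were on the array, with 7 probe sets in all, and they are 5 of 15619 genes tested.

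The samples were whole retinas of male mice at postnatal day 17, pooled from the eyes of each animal and hybridised to Affymetrix mouse gene arrays. The 3 knockout samples are labelled Chx10Cre+/-;Atrx flox/y, a conditional knockout of the chromatin remodeller Atrx. The 3 wildtype samples are littermates labelled Chx10Cre-/-;Atrx flox/y, which carry the same floxed Atrx allele without Cre. Cre is driven by regulatory sequence of Chx10, a homeobox gene of retinal progenitors. Knockout and control differ in the transgene as well as in Atrx, so effects of Cre and of Atrx loss cannot be told apart. By the design text, the loss of amacrine and horizontal cells in this model is at its height at this age, and the comparison asks how the genes of GABA handling stood then.

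GABA is the main inhibitory transmitter of many amacrine cells, the interneurons of the inner retina, and in the mouse also of horizontal cells. Glutamate decarboxylase makes it from glutamate, with Gad1 encoding the largely cytosolic form GAD67 and Gad2 the vesicle-associated form GAD65. Slc32a1 encodes the vesicular carrier VGAT, which loads GABA as well as glycine and so serves GABAergic and glycinergic cells alike. Slc6a11 encodes the plasma membrane carrier GAT3, which in rodent retina is known from Muller glia and amacrine cells. Abat encodes the mitochondrial GABA transaminase, the enzyme that starts GABA breakdown.

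All 5 genes had lower means in knockout than in wildtype retina, and 2 of them passed the test. Gad1 fell 1.61-fold and Slc6a11 fell 1.42-fold; Slc32a1, Gad2 and Abat had lower means that did not pass. The test was limma over all 15619 genes with Benjamini-Hochberg adjustment, and called means that the adjusted p was under 0.05. In that fit 0.826% of all genes were called, 0.346% downward and 0.480% upward. The median log2 change of the 5 genes was -0.37, against 0.00268 over all genes tested, of which 49.1% had a negative change. Because the 5 were chosen with earlier results of these data known, this contrast is a description only. In whole retina, fewer cells of a type and less RNA per cell cannot be told apart.

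For sequence context, the promoters of the enzymes Gad1 and Gad2 and of the carrier Slc6a11 are shown, since Gad1 and Slc6a11 are the called genes and Gad2 is the paralog of Gad1. Each is 300 bases from RefSeq (GRCm38.p6), from 250 bases before to 50 bases after the gene start, plus strand, 5′ to 3′. Capitals mark matches to CANNTG, the E-box core that basic helix-loop-helix factors bind.
Gad1, chr2:70561879-70562178: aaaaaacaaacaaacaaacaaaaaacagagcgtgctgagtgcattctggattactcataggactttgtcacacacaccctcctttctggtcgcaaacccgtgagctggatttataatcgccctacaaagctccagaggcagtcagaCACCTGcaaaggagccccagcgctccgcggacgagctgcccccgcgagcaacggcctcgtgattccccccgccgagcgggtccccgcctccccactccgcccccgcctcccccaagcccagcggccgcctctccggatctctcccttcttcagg
Gad2, chr2:22622077-22622376: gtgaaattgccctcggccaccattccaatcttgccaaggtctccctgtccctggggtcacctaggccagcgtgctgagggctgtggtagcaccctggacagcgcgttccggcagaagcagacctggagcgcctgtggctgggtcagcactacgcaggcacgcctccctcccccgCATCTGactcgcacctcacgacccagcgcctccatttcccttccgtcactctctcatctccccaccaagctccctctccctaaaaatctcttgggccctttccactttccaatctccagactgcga
Slc6a11, chr6:114130991-114131290: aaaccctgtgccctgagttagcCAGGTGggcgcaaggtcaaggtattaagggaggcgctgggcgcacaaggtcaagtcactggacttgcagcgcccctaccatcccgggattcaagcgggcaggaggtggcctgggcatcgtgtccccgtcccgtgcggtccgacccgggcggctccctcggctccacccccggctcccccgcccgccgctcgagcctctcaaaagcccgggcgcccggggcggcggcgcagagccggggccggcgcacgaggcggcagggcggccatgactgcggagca

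Of the 5 genes, 4 had a promoter in the table used, and Abat had none there. Gad1, Gad2 and Slc6a11 each held 1 match to CANNTG and Slc32a1 held 2, a motif present in 72.3% of the 32851 promoters of the same length. The homeodomain core TAATTA, present in 5.29% of them, was in none of the 4 windows. The GC box GGGCGG, searched on both strands and present in 35.7% of all promoters, occurred 4 times at Slc6a11 and 1 time at Gad1. These promoters were rich in G and C, from 60% at Gad1 to 72.3% at Slc6a11, against a median of 52.7% over all promoters. The called genes Gad1 and Slc6a11 held 21 and 32 CG dinucleotides, Slc32a1 held 17 and Gad2 held 14, with a median of 7 over all promoters. Motif searches covered both strands, CANNTG and TAATTA read the same on either, and none of the counted matches was tied to a change of expression here.

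Gad1, the cytosolic decarboxylase, had log2 values of 6.27, 6.40 and 6.22 in the knockout retinas, against 6.83, 7.03 and 7.09 in the wildtype retinas. The groups lay well apart, with the highest knockout value 0.43 below the lowest wildtype value. Means were 6.30 ± 0.09 in knockout and 6.98 ± 0.14 in wildtype (SD, n = 3 each). The log2 change was -0.68 (SE 0.10, 95% interval -0.90 to -0.47), so Gad1 stood at 62.2% of its wildtype level (limma, adjusted p = 0.0172). Of all 15619 genes, 43 had a more negative change. The call was lost without knockout 1 (adjusted p = 0.0787), knockout 3 (0.0742), wildtype 2 (0.107) or wildtype 3 (0.0982), and it held without knockout 2 (0.0277) or wildtype 1 (0.0328).

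Gad2, the vesicle-associated decarboxylase, had log2 values of 7.66, 7.99 and 7.57 in knockout, against 7.95, 8.11 and 8.09 in wildtype. Knockout 2 was above wildtype 1, so the groups overlapped, and the other knockout arrays lay below every wildtype array. Means were 7.74 ± 0.22 in knockout and 8.05 ± 0.09 in wildtype (SD, n = 3 each). The log2 change of -0.31 (SE 0.12, 95% interval -0.58 to -0.04) did not pass the test (limma, adjusted p = 0.302).

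Within each array the Gad1 value was set against the Gad2 value, to ask whether one decarboxylase changed more than the other. The change of Gad1 was 0.37 more negative on the log2 scale (a difference of -0.37), and the within-array differences of the groups did not overlap. The exact permutation test (2-sided, 3 against 3) gave p = 0.1, the smallest it allows, and 0.333 after adjustment over the 10 pairs of the 5 genes. The difference between the changes of Gad1 and Gad2 was therefore not established at this number of arrays.

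Slc32a1, the vesicular carrier, had log2 values of 7.88, 8.17 and 7.55 in knockout, against 8.19, 8.30 and 8.21 in wildtype. The knockout arrays were widely spread, over 0.62, while the wildtype arrays lay within 0.12 of each other. The groups did not overlap, but only 0.02 separated knockout 2 from wildtype 1. Means were 7.87 ± 0.31 in knockout and 8.24 ± 0.06 in wildtype (SD, n = 3 each). The log2 change was -0.37 (SE 0.14, 95% interval -0.70 to -0.04) and was not called (limma, adjusted p = 0.318). Without knockout 3 it was -0.21.

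A second, dimmer probe set of Slc32a1 had log2 values of 5.49, 5.37 and 5.43 in knockout, against 5.85, 5.54 and 5.84 in wildtype. Its groups did not overlap either, and here wildtype 2 was the low array of its group. With all probe sets tested together its log2 change was -0.31 (SE 0.11) with an adjusted p of 0.386, and 0.285% of the 25961 probe sets were called in that fit. Both probe sets of Slc32a1 thus had lower means in knockout, and neither passed. The second one lay near the array medians over all probe sets, which ran from 5.57 to 5.64.

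Slc6a11, the GAT3 carrier, had log2 values of 10.06, 10.27 and 10.14 in knockout, against 10.64, 10.71 and 10.64 in wildtype. The wildtype arrays were nearly equal, and every knockout array lay at least 0.37 below them. Means were 10.16 ± 0.11 in knockout and 10.66 ± 0.04 in wildtype (SD, n = 3 each). The log2 change was -0.51 (SE 0.08, 95% interval -0.69 to -0.32), leaving Slc6a11 at 70.4% of its wildtype level (limma, adjusted p = 0.0376). A more negative change was seen for 105 of the 15619 genes. The call held without knockout 2 (adjusted p = 0.0282) and was lost without any other array, with an adjusted p of 0.113 when knockout 1 was left out and 0.111 for knockout 3. It was 0.135, 0.194 and 0.147 when wildtype 1, 2 or 3 was dropped.

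Abat, the enzyme of GABA breakdown, had log2 values of 9.12, 9.34 and 9.17 in knockout, against 9.41, 9.48 and 9.43 in wildtype. The groups did not overlap and were 0.07 apart at their nearest arrays. Means were 9.21 ± 0.12 in knockout and 9.44 ± 0.03 in wildtype (SD, n = 3 each). The log2 change of -0.23 (SE 0.08, 95% interval -0.42 to -0.04) was not called (limma, adjusted p = 0.294). The dimmer second probe set of Abat had 5.66, 5.82 and 5.67 in knockout, against 5.72, 5.77 and 6.03 in wildtype. Those groups overlapped, and its log2 change was -0.13 (SE 0.11, adjusted p = 0.708 with all probe sets tested).

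**Figure D1:**
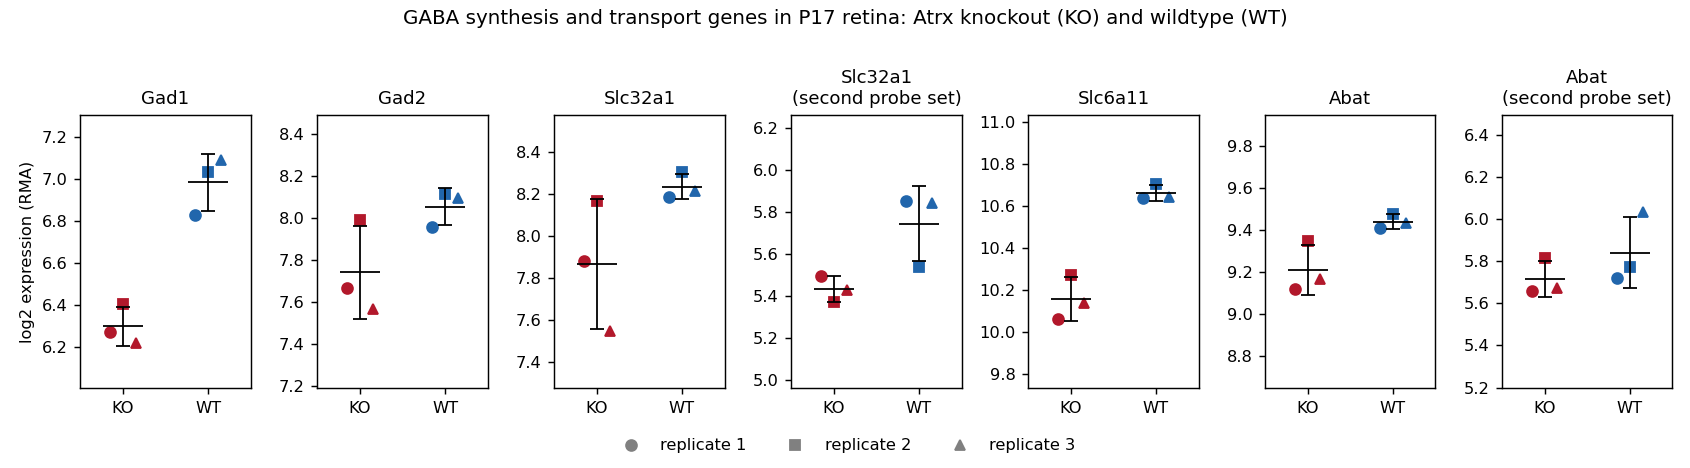
Log2 RMA expression of the 7 probe sets of the 5 genes in each retina, with knockout (KO, red) left of wildtype (WT, blue); point shapes give the replicate, bars the mean and SD of 3 arrays, and every panel spans the same height in log2 units. Gad1 and Slc6a11 show the widest gaps between groups, while knockout 2 of Gad2 reaches the wildtype range.

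Across the 5 genes, 4 had groups that did not overlap, with knockout lower, and over all genes tested that held for 9.58%. All 5 had an unadjusted p under 0.05 with a negative change, which held for 6.50% of all genes. Only Gad1 and Slc6a11 remained after adjustment over all genes. With 3 arrays a group, the smallest p of the exact permutation test is 0.1, which the 4 genes without overlap reached; Gad2 had 0.2.

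The arrays were ordered alike in these genes. Knockout 2 was the highest knockout array for all 5 genes, against 40.7% of all genes, and wildtype 1 was the lowest wildtype array for all 5, against 37.4% of all genes. These 2 arrays were also rich in lens RNA: over 14 tested lens genes the mean log2 value reached 10.21 for knockout 2 and 11.44 for wildtype 1, compared with 5.69 and 6.13 on the other knockout arrays and 5.74 and 5.88 on the other wildtype arrays. Without these 2 arrays the log2 change of Gad1 was -0.81 (limma, adjusted p = 0.0430) and that of Slc6a11 was -0.57 (0.0953, not called). In the same fit Gad2 was at -0.49, Slc32a1 at -0.54 and Abat at -0.31, none of them called. All 5 changes were more negative without the lens-rich arrays, with 2 arrays left in each group. This had to follow, since the arrays left out were the highest knockout and the lowest wildtype array for each gene. It therefore cannot show whether the changes depend on lens RNA, which was not tested.

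Among the 10 pairs of the 5 genes, the within-array differences did not overlap between genotypes for 3: Gad1 against Gad2, Gad1 against Abat and Slc6a11 against Abat. The change of Gad1 was more negative than that of Abat (a difference of -0.45), and that of Slc6a11 was as well (-0.28). Each of the 3 pairs had an exact permutation p of 0.1, the smallest it allows, and 0.333 after adjustment over the 10 pairs. None of these differences was therefore established. The pairs share genes and are not separate observations, and the share over all gene pairs was not computed. The changes of Gad2 and Slc32a1 differed by 0.05 (exact p = 0.6), and those of Gad1 and Slc6a11, the called genes, by -0.18 (exact p = 0.2).

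The other genes of the pathway, taken from lists of carriers, enzymes, partners, chloride carriers and receptors, were mostly not called. Of 49 listed genes 37 were tested, and 1 of these was called, against 0.826% of all genes. Negative changes were seen in 22 of the 37, against 49.1% of all genes tested, and the median log2 change of the 37 was -0.02.

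The list of other carriers of GABA, betaine or taurine had 3 tested genes, Slc6a12, Slc6a13 and Slc6a6; none was called by limma, and none had an unadjusted p under 0.05. Slc6a12, the betaine and GABA carrier, had log2 values of 6.23, 5.91 and 6.30 in knockout, against 6.27, 6.64 and 6.38 in wildtype, a change of -0.29 (SE 0.13, adjusted p = 0.393) with overlapping groups. Slc6a13, the carrier GAT2, was at -0.05 (SE 0.13, adjusted p = 0.891) and Slc6a6, the taurine carrier, by -0.11 (SE 0.08, adjusted p = 0.603).

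Enzymes on either side of the GABA pool were not called. Aldh5a1, the succinic semialdehyde dehydrogenase that acts after the transaminase, had log2 values of 6.96, 7.38 and 7.01 in knockout, against 7.29, 7.35 and 7.52 in wildtype. Its change of -0.27 (SE 0.12) had overlapping groups and an adjusted p of 0.397. Pdxk, the kinase that makes the decarboxylase cofactor pyridoxal phosphate, was at -0.13 and the glutamine synthetase Glul at -0.09, and 5 of 6 tested enzymes had negative changes. Among 5 glutamine carriers, which supply the glutamate precursor, 2 had negative changes, and the changes ran from -0.10 for Slc38a1 to 0.13 for Slc38a6. The palmitoyl transferase Zdhhc17, which modifies GAD65, was at 0.14 and none of the 4 partners of glutamate decarboxylase was called.

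On the side of the response to GABA, the neuronal chloride exporter Slc12a5 was at -0.35 (SE 0.10, adjusted p = 0.178) and the chloride importer Slc12a2 at 0.17, neither called. Slc12a5 had 9.71, 9.94 and 9.62 in knockout, against 10.05, 10.17 and 10.09 in wildtype, and these groups did not overlap. Of 15 tested receptor subunits, 1 rose and none fell, against 0.480% and 0.346% of all genes. The subunit that rose was Gabrr3, of the rho class, which changed by 0.59 (SE 0.08, limma, adjusted p = 0.0134). Its adjusted p lay between 0.0522 and 0.0927, missing the threshold, once any of knockout 1, knockout 3, wildtype 2 and wildtype 3 had been dropped. Of the 15, 10 had negative changes, with Gabra4 at -0.33 and Gabrg1 at -0.23, and the list median was -0.09.

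**Figure D2:**
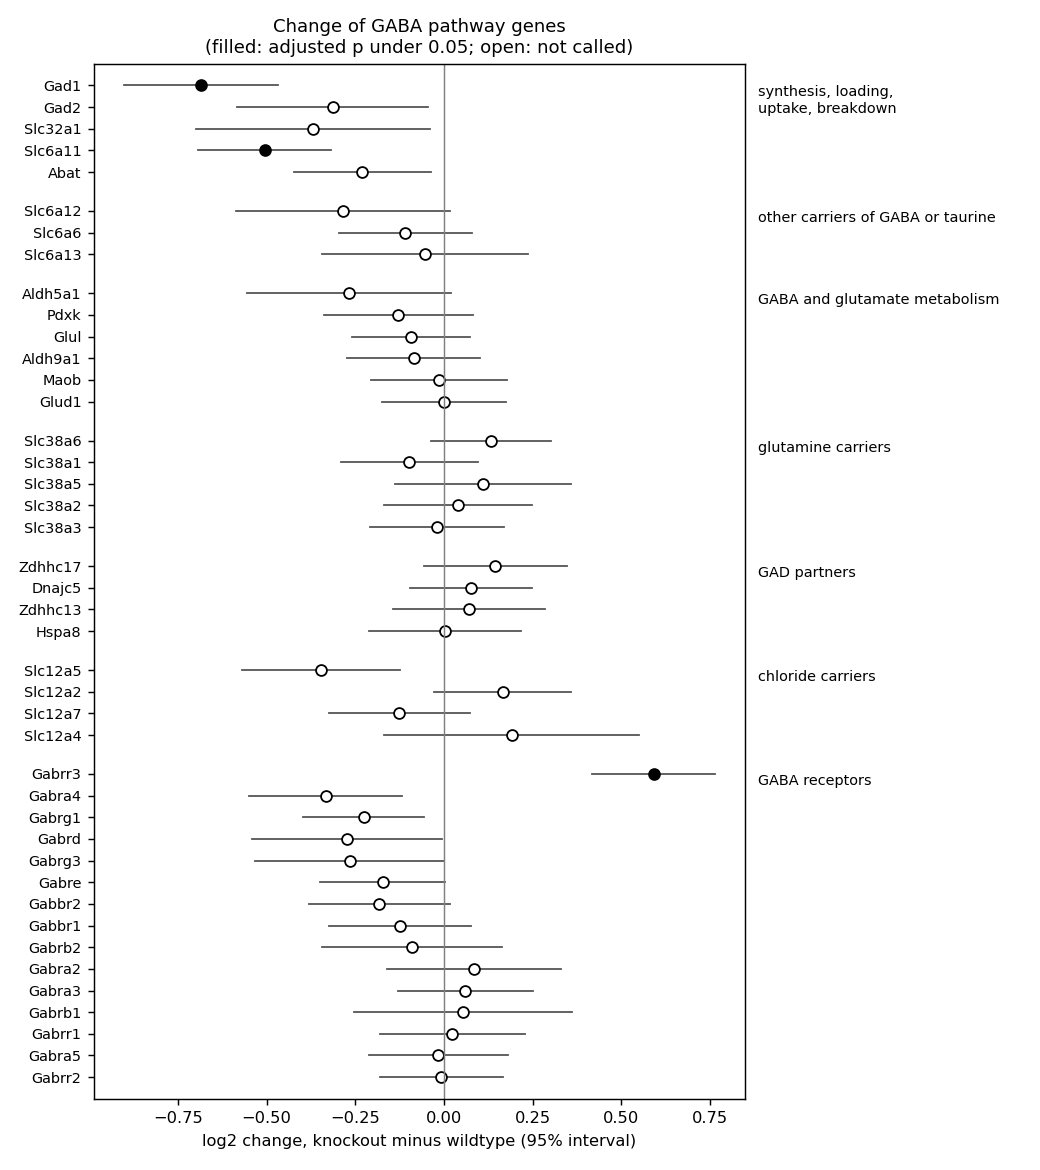
Log2 change (knockout minus wildtype, horizontal axis) with its 95% limma interval for the 5 genes and the other tested genes of the GABA pathway, grouped by role; filled points were called at an adjusted p under 0.05. The 5 genes lie between -0.68 and -0.23, and of the other 37 genes only Gabrr3, at 0.59, was called.

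Genes of the cells that use GABA give the setting of these values. Among the 14 tested co-transmitter genes of GABAergic amacrine cells, 5 fell and 1 rose, against 0.346% and 0.480% of all genes. Their median log2 change was -0.34, near the -0.37 of the GABA genes. Slc5a7, the choline carrier of starburst amacrine cells, had -1.56, Vip -1.21 and Chat, which makes acetylcholine, -0.62. Starburst cells are known to release GABA too. Of the 14, 11 had negative changes. The gene that rose was Gal, at 0.82 (limma, adjusted p = 0.0432), and its call was not examined with 1 array left out. Of 5 tested glycinergic amacrine genes 2 fell, Slc17a8 (-0.78) and the glycine carrier Slc6a5 (-0.58), and their median was -0.29. Slc5a7 held with any 1 array left out. The calls of Vip and Chat were lost when knockout 1, wildtype 2 or wildtype 3 was dropped, Chat also without knockout 3 (adjusted p from 0.0527 to 0.0928), and those of Slc17a8 and Slc6a5 with any array left out but knockout 2 (0.0584 to 0.197).

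Transcription factors of amacrine cells showed no called gene among 16 tested and a median of -0.04. Tfap2b was at -0.52 (adjusted p = 0.104), Prdm13 at 0.37 (0.0943) and Barhl2 at -0.27 (0.143), and none of them passed. Of 12 tested horizontal cell genes none was called, with Onecut1 at -0.38 (adjusted p = 0.0549). Negative changes were seen in 10 of the 12, and their median was -0.08. Medians were -0.05 for 10 ganglion cell genes, 0.05 for 12 Muller glia genes, 0.02 for 9 bipolar genes and 0.12 for 8 rod genes, with none called.

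Pigment epithelium, a tissue that adheres to the retina, had 11 tested marker genes. Of these 9 had negative changes, none was called, and the median was -0.37, as for the GABA genes. The list mean was 8.62, 9.52 and 9.71 on knockout 1, 2 and 3, against 9.14, 9.90 and 9.57 on wildtype 1, 2 and 3, so knockout 1 was the lowest array and the genotypes overlapped. The 14 tested lens genes had a median of -0.27, with 11 negative and none called. Without knockout 1 the change of Gad1 was -0.67, of Slc6a11 -0.46, of Slc32a1 -0.38, of Gad2 -0.28 and of Abat -0.18, none of them called. The part of pigment epithelium in the changes of the GABA genes was not tested.

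Muller glia are a known site of GAT3, and their markers had changes of either sign. Of the 12 tested Muller genes 5 had negative changes; Abca8a was at 0.44 (adjusted p = 0.0659), Dkk3 at -0.26 (0.259) and Rlbp1, a retinoid carrier of these cells, at -0.20 (0.302). The mean of the Muller list lay between 8.88 and 8.94 on the knockout arrays, against 8.87 and 8.90 on the wildtype arrays. The part of any cell type in the fall of Slc6a11 was not tested.

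**Figure D3:**
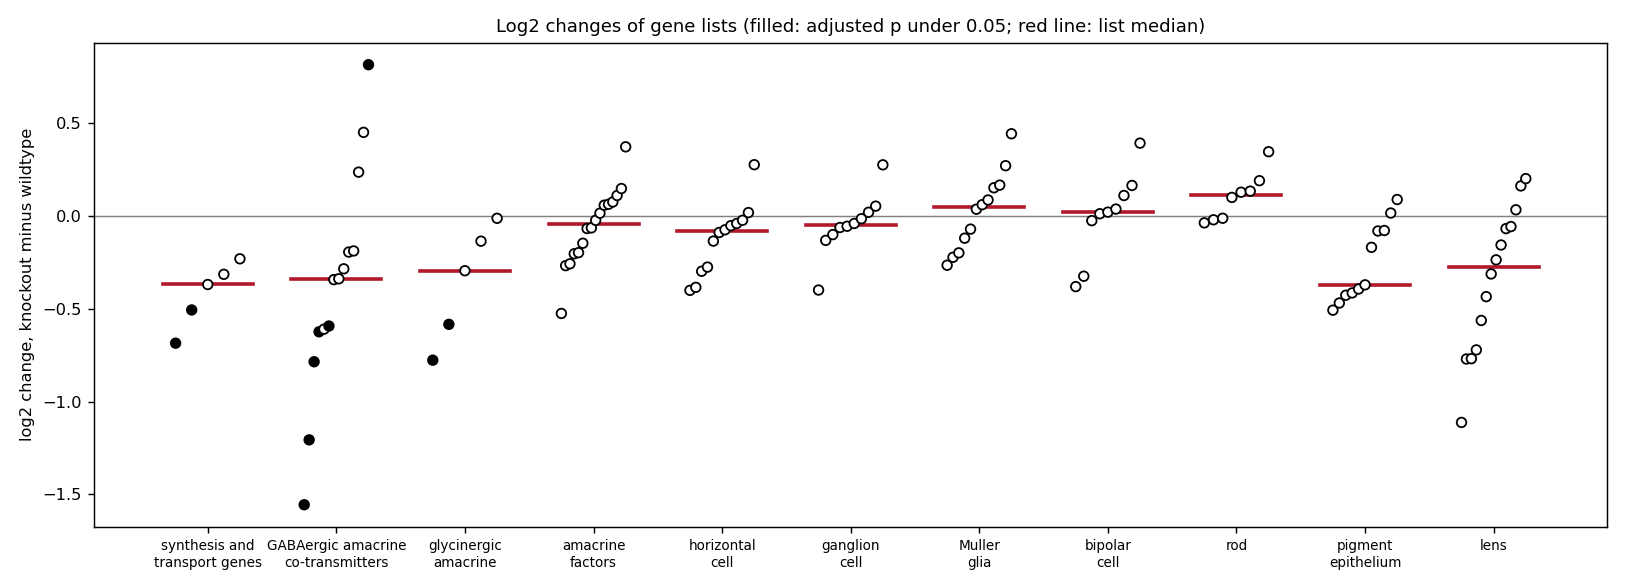
Log2 changes (knockout minus wildtype, vertical axis) of the tested genes of each list, with filled points for genes called at an adjusted p under 0.05 and a red line at the list median. The median was -0.37 for the GABA genes, -0.34 and -0.29 for the GABAergic and glycinergic amacrine lists, -0.37 for pigment epithelium and -0.27 for lens, and no gene of the pigment epithelium and lens lists was called.

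The genes with the pattern most like each of the 5 over the 6 arrays were listed by Pearson's r, as a description only, since the arrays share the genotype split and 15618 genes were compared for each. Gad1 was closest to Cdh13, a cadherin (r = 0.996), Ina, the neurofilament protein internexin (0.995), and Dpp6, a potassium channel partner (0.992). Dpp6 had log2 values of 8.62, 8.72 and 8.57 in knockout, against 9.03, 9.10 and 9.11 in wildtype, and fell by 0.44 (limma, adjusted p = 0.0481), a call that held only without knockout 2 when 1 array was left out (0.125 to 0.231 otherwise). Cdh13 was at -0.41 and Ina at -0.25, neither called.

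Slc6a11 was closest to Nrxn3, a presynaptic adhesion protein (r = 0.997), Tmem179 (0.996) and Pappa2, a secreted protease (0.995). Pappa2 had log2 values of 4.85, 5.13 and 4.88 in knockout, against 5.76, 5.79 and 5.80 in wildtype, and was called lower (adjusted p = 0.00899). Knockout 1 and 3 lay under the log2 floor of 5, so the gene entered the test through its wildtype arrays, the group where it was high. Knockout 2 reached the floor too but was not needed. The call of Pappa2 is therefore not read as evidence, and the size of its difference is not given. Pappa2 was not among the genes tested at a floor of 6. Its call was lost without wildtype 2 or 3 (adjusted p from 0.0513 to 0.0576). Nrxn3 was at -0.32 and Tmem179 at -0.31, neither called.

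Gad2 was closest to Rnf112 (r = 0.995), Atp6v0a1, a subunit of the proton pump that energises vesicle loading (0.994), and Gtf2i (0.992). Atp6v0a1 had 10.24, 10.49 and 10.19 in knockout, against 10.42, 10.57 and 10.55 in wildtype, a change of -0.21 that was not called. Slc32a1 was closest to Trim67 (0.992), Rsf1 (0.991) and Tle3 (0.990), and Abat to Arhgef1 (0.995), the bicarbonate carrier Slc4a8 (0.994) and Neo1 (0.993). None of these 6 neighbours of Slc32a1 and Abat was called. Each had its highest knockout value on knockout 2, as those genes did, an order favoured by their choice through correlation over the same arrays.

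Gad1os, a gene named for the strand opposite Gad1, was looked up after the lists were written. It had log2 values of 5.62, 5.60 and 5.72 in knockout, against 5.60, 5.59 and 5.51 in wildtype. The groups were apart by less than 0.01 with knockout higher (exact permutation p = 0.1), and means were 5.65 ± 0.06 in knockout and 5.57 ± 0.05 in wildtype (SD, n = 3 each).

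Atrx, the targeted gene, had log2 values of 8.42, 8.72 and 8.33 in knockout, against 9.04, 8.86 and 9.17 in wildtype, a change of -0.53 that was not called (adjusted p = 0.115). The position of its probes relative to the floxed part was not examined, so this value need not show the full loss. Rod genes were bright on every array, with a list mean from 11.63 to 11.66 in knockout and from 11.49 to 11.58 in wildtype. Across the 15619 genes the arrays correlated with Pearson's r between 0.975 and 0.993.

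The plot of all settings shows how the 5 changes and their adjusted p-values moved.

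**Figure D4:**
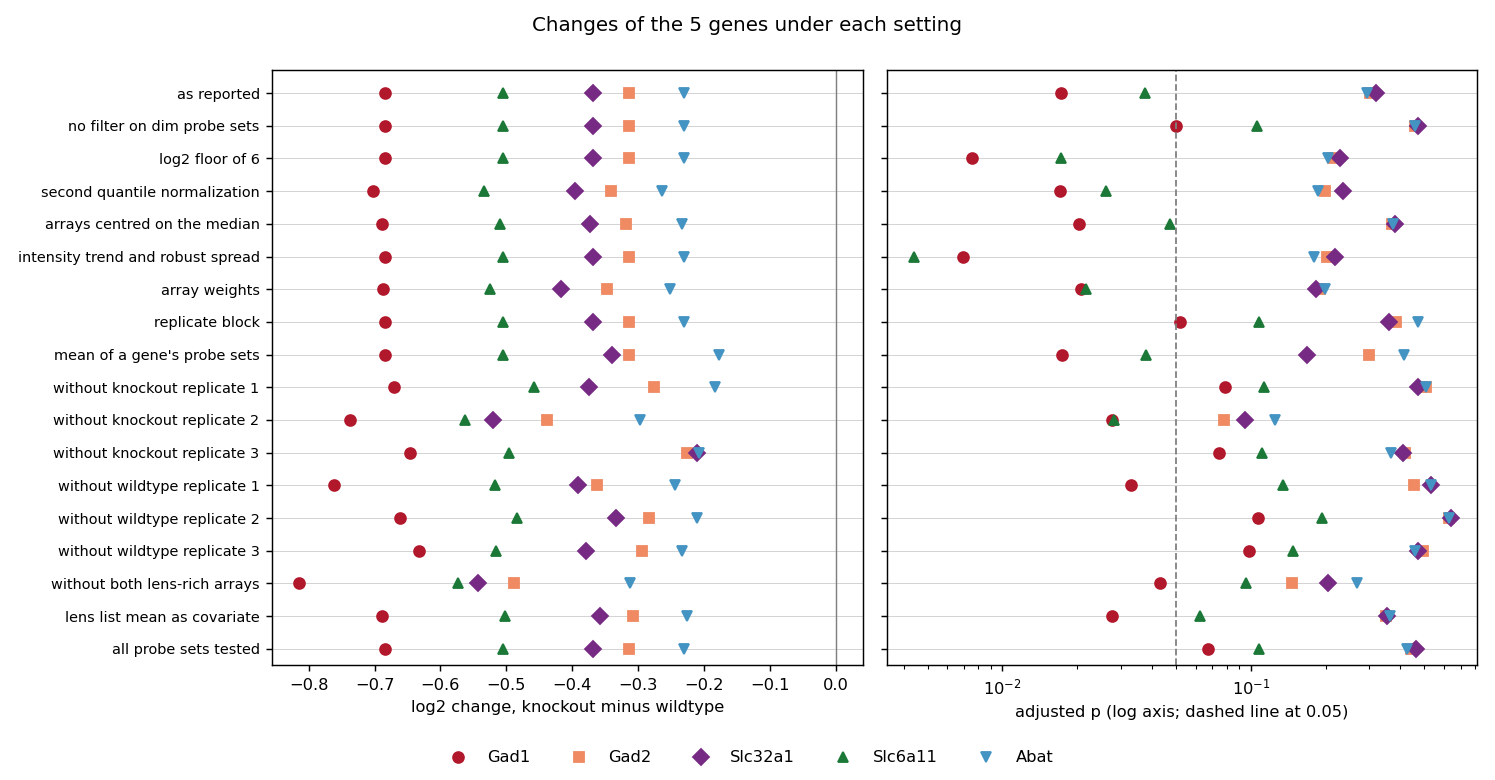
Log2 change (left, knockout minus wildtype) and adjusted p (right, log axis, dashed line at 0.05) of the 5 genes as reported and under 17 alternatives, 1 per row. All changes stay below 0, though several of the alternatives could not have reversed them. Gad1 passes in 11 of 17 alternatives and Slc6a11 in 7, and Gad2, Slc32a1 and Abat pass in none.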

How the data were processed

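The authors deposited log2 values for each probe set of each array, computed by RMA according to the submitters' processing notes (background correction, quantile normalization, summary over probes). Neither its version nor the genome build is stated in the sources used. The number of arrays, 3 a group, limits the precision. Of 41345 probe sets, 23521 had 1 gene symbol in the platform annotation, 1814 several and 16010 none; 23328 matched RefSeq by gene identifier. Probe sets reaching a log2 value of 5 on 3 or more arrays entered the test, and a gene with several was represented by the brightest.

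Knockout was compared with wildtype by limma 3.58.1 (R 4.3.3; lmFit and eBayes with genotype alone, 2-sided) with Benjamini-Hochberg adjustment over all 15619 genes; unlabelled values in brackets are adjusted p-values. Pairs of genes used an exact permutation test. The procedure was tested on simulated data. The labels describe each sample as retina from both eyes of a mouse and give no batch. Same-numbered arrays did not deviate together, which cannot decide whether they were paired. Members and lists were chosen with earlier results of these data known. Other genes were named as the 3 of each list with the smallest p, all uptake carriers, and the 3 most alike per member without unnamed loci. Gal was named in addition, as the called gene of its list that rose. Figures used matplotlib 3.10.9.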

Additional observations from a re-analysis of the deposited data

How the results depend on the processing

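The direction of all 5 changes held in each of 17 alternatives, and Gad2, Slc32a1 and Abat passed in none. Several of these alternatives could not have reversed a direction. The intensity trend, the replicate block, the changed filters and the test of all probe sets left each estimate as it was. Leaving arrays out could not reverse a change where the groups did not overlap, as in 4 of the 5 genes. Against -0.68 for Gad1 and -0.51 for Slc6a11 as reported, both calls were lost when all probe sets were tested together (-0.68 and -0.51, with more tests; adjusted p = 0.0672 and 0.107) and with the replicate block (-0.68 and -0.51; adjusted p = 0.0518 and 0.108). Same-numbered arrays correlated at -0.27, -0.38 and -0.06 in their deviations. The lens-rich arrays, knockout 2 and wildtype 1, have different numbers, so these values cannot decide whether the samples were paired. Slc6a11 alone was lost with no filter on dim probe sets (-0.51), without both lens-rich arrays (-0.57) and with the lens list mean as a covariate (-0.50). The 2 called genes thus became 1 in these 3 settings and 0 with the replicate block or all probe sets. With 1 array left out they ran from 0 to 2, with changes from -0.76 to -0.63 for Gad1 and from -0.56 to -0.46 for Slc6a11. The 1 other pathway gene called, Gabrr3, became 0 with the replicate block, without both lens-rich arrays and with all probe sets, and 0 to 1 with 1 array left out. The order of Gad2 against Slc32a1 (0.05) turned to -0.016 without knockout replicate 3 and reached 0.0995 without knockout replicate 1; no other pair turned. Over all genes, 129 were called as reported, 282 with an intensity trend and robust spread, 209 with a log2 floor of 6, 74 with no filter, 68 with the block, 36 without both lens-rich arrays, 45 of these genes with all probe sets, and 25 to 141 with 1 array left out; these counts and those of pathway genes under alternatives were added after seeing the data. The cause of these shifts was not tested. The number of arrays limits all of these values: the median SE was 0.0948 on the log2 scale.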
